A study of Mustela putorius furo and Mus musculus with 4 samples.

Results

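The ligands and receptors of the 4 classical families of axon guidance cues were followed across radial glial (RG) cells, intermediate progenitor cells (IPCs) and neurons of the E18 mouse cortex and the E39 ferret cortex. Members were taken by symbol: every semaphorin, plexin, neuropilin, Slit, Robo, netrin, Unc5, Eph receptor and ephrin gene in the count tables, together with Dcc. This gave 68 of 17170 mouse rows, of which 67 were guidance genes and 1 was the antisense RNA Plxna4os1, and 70 of 22008 ferret rows. The 67 mouse guidance genes were all found in the ferret table, which also held EPHA1, NTN3 and ROBO3.

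The study asked what sets the length of cortical neurogenesis, with BMP7 and SHH as signals acting against each other, and measured single-cell RNA in droplets. The control library was of CD1 littermate cortex that the labels call wild type and the methods call Smo F/F, that is, with both copies of Smo flanked by loxP sites and no Cre. The Smo-cKO library was of hGFAP-Cre;Smo F/F littermate cortex, in which a human GFAP promoter drives Cre in cortical RG cells and so removes Smo, the receptor component that transduces SHH, from these cells and their progeny. In both genotypes a fluorescent cell dye was injected into the lateral ventricle a day before collection and labelled cells were sorted, so both libraries were enriched for cells that had lined the ventricle and for what these cells had made since. The ferret cells came from the wild type cortex, both hemispheres, of 1 embryo at E39, and no dye or sort is described for them. There was 1 library per genotype, and the number of embryos behind each is not given in the sources used here, so that genotype, embryo and library preparation cannot be told apart, and the mouse values below carry no test. The mouse table names its cells by a barcode suffix only. The suffix with 10524 cells was read as control and that with 7596 cells as Smo-cKO from the cell numbers that the study states, and every genotype direction below would turn around if that reading were wrong. The ferret table likewise held 2 sets of barcodes that cannot be tied to its 2 labelled samples, so they are called set 1 and set 2.

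After the study's own cell filter, 10498 control and 7209 Smo-cKO cells remained, with 51657121 and 42057782 unique molecular identifiers (UMIs), and 10185 and 13052 ferret cells remained in sets 1 and 2. Guidance genes took 0.236% and 0.273% of the mouse UMIs and 0.615% and 0.816% of the ferret UMIs. The libraries shared 28 mouse and 38 ferret barcodes. Cells were clustered with the guidance genes left out, and clusters were named from marker genes. The classes used here were RG-like cells (979 control and 787 Smo-cKO), cycling RG-like cells (1163 and 559), IPC-like cells (2128 and 1310), pyramidal neuron-like cells (PyN-like, 3630 and 3079), interneuron-like cells (IN-like, 172 and 294) and microglia-like cells (96 and 176). Of 15 RG markers, 13 and 8 marked the 2 mouse RG-like clusters by at least 2-fold over the other clusters, and of 16 PyN markers 5 to 10 marked the 4 PyN-like clusters. The microglia-like class joined clusters led by Ly86 (71 control and 76 Smo-cKO cells) and by 1600014C10Rik (25 and 100 cells). Its make-up thus differed between libraries. A level is given as CPM, that is, the summed UMIs of a gene in a class relative to all UMIs of that class, and a ratio of levels is followed by its exact 95% interval, which covers counting error only and not the spread between animals. UMIs were not divided by transcript length, so levels are compared between cells, not between genes. A gene was tested in a comparison when both sides held at least 30 UMIs together. It was called higher or lower when the levels of classes differed 2-fold or those of genotypes 1.5-fold.

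Guidance cues are read by receptors on the growth cone and on migrating cells. Secreted class 3 semaphorins bind neuropilins, which signal through A-type plexins, whereas most other semaphorins are membrane-bound and bind plexins directly. Slit proteins repel cells that carry Robo receptors. Netrins attract through DCC and repel through UNC5 receptors, and the netrin-G proteins are membrane-anchored relatives that bind synaptic adhesion partners instead. Ephrins are held on the cell surface and signal through Eph receptor tyrosine kinases on contact. In the cortex these systems are best known for guiding axons and for the migration of newborn pyramidal neurons past the radial glia.

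Smo itself was checked first. Among RG-like cells, 73 of 979 from the control (7.46%, exact interval 5.89 to 9.28) held a Smo UMI, against 3 of 787 from Smo-cKO (0.381%, 0.0787 to 1.11), although the Smo-cKO cells were the more deeply sequenced, with a median of 7099 UMIs against 4806. In microglia-like cells, which do not descend from RG cells, the control had 0 of 96 cells (exact interval 0 to 3.77%). Smo-cKO had 5 of 176 (2.84%), and the median depths were 8461 and 7579 UMIs. Ptch1 and Gli1, target genes of SHH signaling, had the same order in RG-like cells. A Ptch1 UMI was held by 89 of 979 control cells (9.09%, 7.36 to 11.1) and 8 of 787 Smo-cKO cells (1.02%, 0.44 to 1.99). A Gli1 UMI was held by 30 of 979 control cells (3.06%, 2.08 to 4.35) and by none of the 787 Smo-cKO cells (0 to 0.468%). In microglia-like cells Ptch1 was found in 7 of 96 and 8 of 176 cells (7.29% and 4.55%), and Gli1 in none. In RG-like cells the library read as Smo-cKO thus had the smaller share of cells with each of these 3 genes, while the reading itself rests on the cell numbers.

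Most guidance genes that separated neurons from radial glia in the mouse were higher in the neurons, and a smaller set was the reverse. In the control library 50 members were tested between PyN-like and RG-like cells, and 26 were higher in PyN-like cells (52%, against 11.3% of all genes tested) while 8 were lower (16%, against 17.6%). The median log2 difference was 1.12 over the members tested and 0.01 over all genes. In the Smo-cKO library 26 of 52 were higher (background 14.3%) and 12 were lower (background 18.3%). The same 24 genes were higher and the same 8 were lower in both libraries, and no member was called in opposite directions. The classes in the 2 libraries were drawn by a shared clustering, so the libraries are shown side by side and do not serve as independent tests. No share of all genes called alike in both libraries was taken, here or for the classes below.

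**Figure D1:**
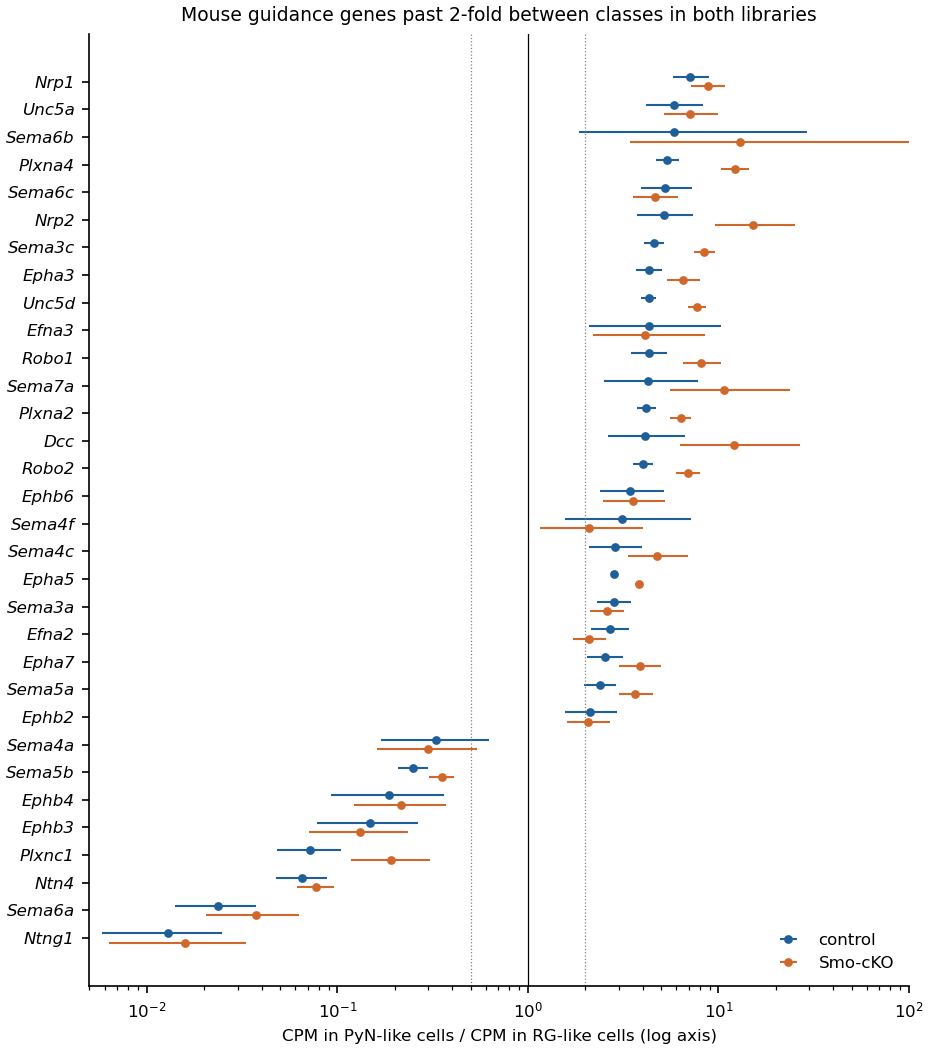
Ratio of the level in PyN-like cells to that in RG-like cells (log axis) for the 32 members called the same way in control and Smo-cKO mice. Points are ratios and bars are exact 95% intervals of counting error. Sema6b in Smo-cKO cells rests on 2 UMIs in RG-like cells and its bar runs past the axis, and the 8 genes at the bottom, from Ntng1 to Sema4a, lie below 1 in both libraries.

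Receptors for secreted semaphorins were among the genes higher in neurons. Nrp1, which binds Sema3a, stood at 16.2 CPM in control and 16.7 CPM in Smo-cKO RG-like cells, and at 115 and 147 CPM in PyN-like cells. The level in control PyN-like cells was 7.13-fold (5.74 to 8.96) that in RG-like cells. Nrp2, its relative, was 5.19-fold (3.76 to 7.35) higher in control and 15.1-fold (9.61 to 25.3) higher in Smo-cKO PyN-like cells, the latter resting on 19 UMIs in RG-like cells. Their signaling partners were plexins. Plxna4 rose from 41.4 to 222 CPM between control RG-like and PyN-like cells and from 25.1 to 305 CPM in Smo-cKO, and Plxna2 from 60.6 to 253 and from 44.5 to 282 CPM. Plxna1 and Plxnb2 were not called in either library. Plxnb2, a plexin of neural progenitors as well as neurons, was measured at 53.5 and 64.5 CPM in RG-like and 74.1 and 80.8 CPM in PyN-like cells.

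The ligands of this system were also carried by neurons. Sema3c reached 277 and 354 CPM in PyN-like cells against 60.4 and 42.1 CPM in RG-like cells, a ratio of 4.59-fold (4.09 to 5.15) in control. Sema3a, a repellent of cortical axons, was 2.82-fold (2.3 to 3.5) higher in control. Of the other class 3 genes, Sema3f was not called in control and Sema3b, Sema3d, Sema3e and Sema3g had too few UMIs there. Among membrane-bound semaphorins, 6 of 13 were called higher in control PyN-like cells (Sema4c, Sema4f, Sema5a, Sema6b, Sema6c and Sema7a, background 11.3%) and 3 were called lower (background 17.6%). Sema6c rose from 8.73 to 45.9 CPM in control, a ratio of 5.26-fold (3.9 to 7.23), and the GPI-anchored Sema7a from 2.79 to 11.9 CPM. Sema6b was 5.81-fold (1.86 to 29.3) higher from 3 UMIs in RG-like cells.

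The receptors Robo1, Robo2, Unc5a and Unc5d showed the same order in both libraries. Robo1 and Robo2, the Slit receptors of cortical cells, were at 16.9 and 57.2 CPM in control RG-like cells and at 72.8 and 230.4 CPM in control PyN-like cells, ratios of 4.31-fold (3.47 to 5.4) and 4.03-fold (3.58 to 4.54). Their ligands were low in both classes. Slit2 was measured at 11.7 CPM in RG-like and 10.9 CPM in PyN-like control cells and was not called, and Slit1 and Slit3 fell short of 30 UMIs. Unc5d, long used as a mark of multipolar neurons leaving the subventricular zone, rose from 97 to 418 CPM in control and from 62 to 477 CPM in Smo-cKO. Unc5a was 5.82-fold (4.19 to 8.32) and Dcc 4.1-fold (2.64 to 6.67) higher in control. The other Unc5 receptors differed from this. Unc5b was called higher in control, from 2 UMIs in RG-like cells, and was not called in Smo-cKO, at 1.5 and 2.4 CPM in RG-like and PyN-like cells. Unc5c had under 30 UMIs in control and was lower in Smo-cKO PyN-like cells, at 1.01 CPM against 2.84 CPM. The level of Dcc in RG-like cells (4.09 and 1.5 CPM) lay within a few UMIs of that in microglia-like cells, at 2.02 and 0.545 CPM.

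Of 9 Eph receptors tested in control cells, 5 were higher in PyN-like cells (background 11.3%) and 2 lower (background 17.6%). Of 7 ephrins 3 were higher and none lower, against the same backgrounds. Epha5 stood at 466 (448 to 485) CPM in control RG-like cells and 1321 (1302 to 1341) CPM in control PyN-like cells, and at 385 and 1467 CPM in Smo-cKO. Epha3 rose from 33.6 to 145 CPM in control, a ratio of 4.31-fold (3.7 to 5.05), and Epha7, Ephb2 and the kinase-inactive Ephb6 were called higher as well. Epha4 was already high in RG-like cells, at 211 and 270.2 CPM, and at 287 and 316 CPM in PyN-like cells it was not called. Among ephrins, Efna2 and Efna3 were called higher in both libraries, the latter at 1.49 CPM in control RG-like and 6.4 CPM in control PyN-like cells. Efnb1, which progenitors carry, was at 173 and 168 CPM in RG-like and 119.6 and 112 CPM in PyN-like cells, and Efnb2 at 76.7 and 80.9 against 135 and 157 CPM. Neither was called.

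**Figure D2:**
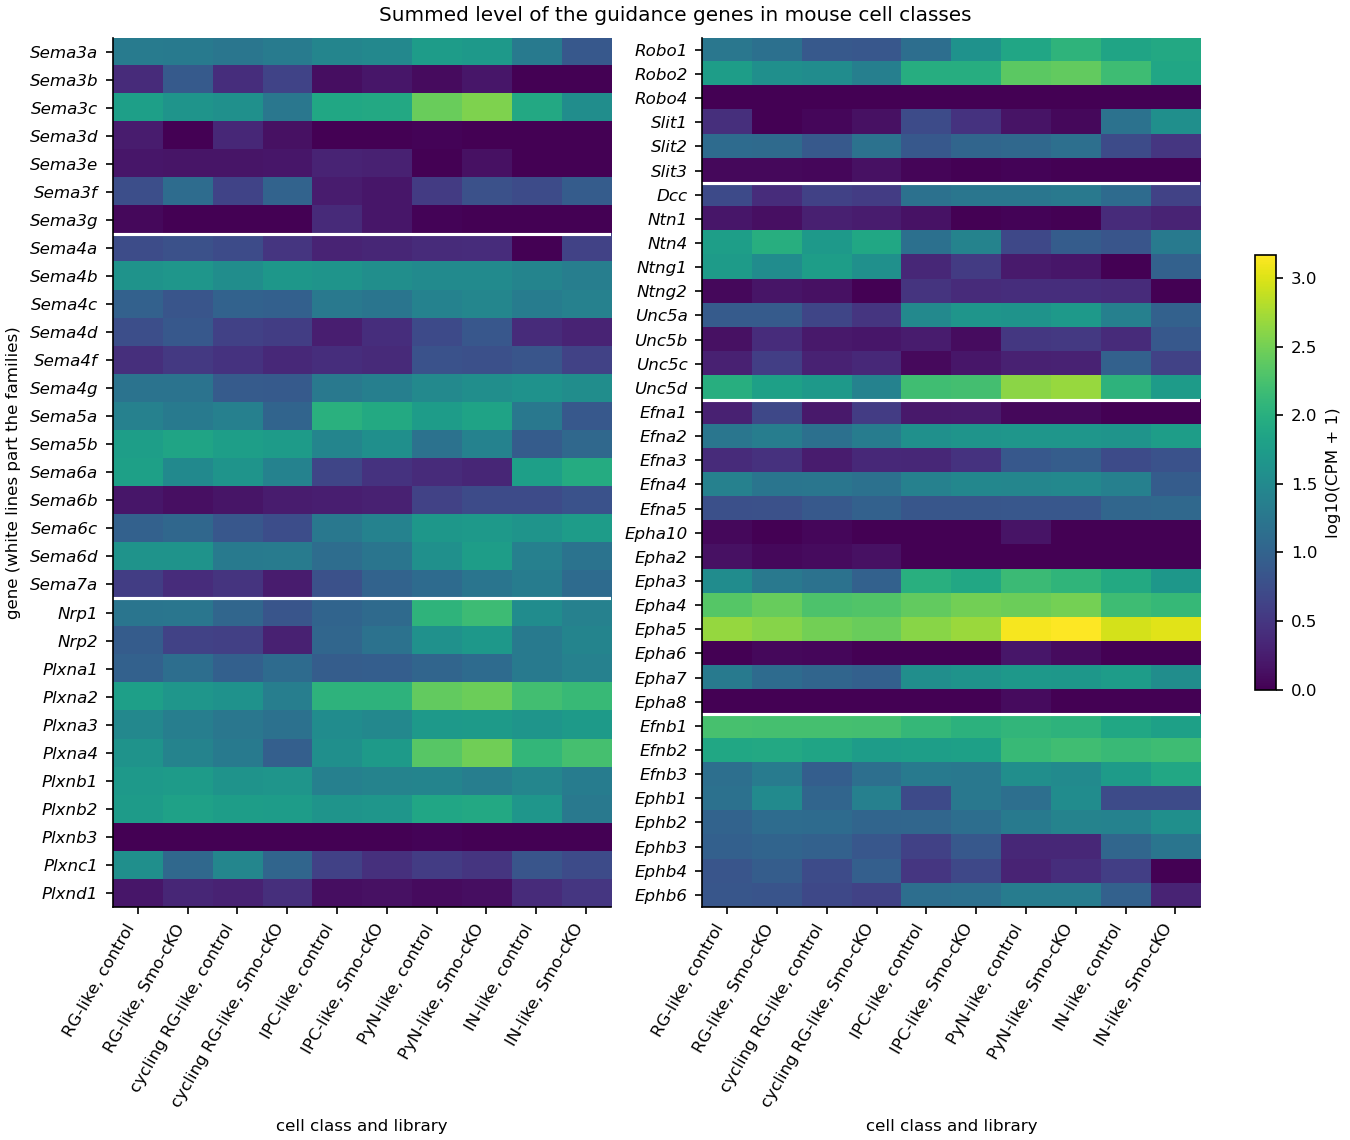
Level of the mouse guidance genes, as log10(CPM + 1) in colour, in RG-like, cycling RG-like, IPC-like, PyN-like and IN-like cells of the control and Smo-cKO libraries, grouped by family between white lines. The antisense RNA is left out. The block of Plxna2, Plxna4, Robo2, Unc5d and Epha5 is high in PyN-like cells, and Ntng1, Ntn4, Plxnc1 and Sema6a are high in RG-like cells.

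The 8 genes lower in neurons of both libraries included ligands as well as receptors. Ntng1, which encodes the membrane-anchored netrin-G1 (chr3:109780040-110144011, minus strand, mm10), was at 54.1 (48 to 60.6) CPM in control and 34.1 (29.6 to 39.1) CPM in Smo-cKO RG-like cells and at 0.694 and 0.541 CPM in PyN-like cells. It was 77.9-fold (40.5 to 172) lower in control PyN-like cells. Sema6a, a transmembrane ligand of A-type plexins, fell from 62.2 to 1.47 CPM in control and from 31.1 to 1.16 CPM in Smo-cKO. The secreted Ntn4 fell from 59.1 to 3.86 CPM and from 96.3 to 7.42 CPM. Plxnc1, the receptor of Sema7a, fell from 36.4 to 2.62 CPM and from 10.9 to 2.09 CPM, so this receptor and its ligand Sema7a had opposite orders in the 2 classes. Sema5b was 4.0-fold (3.33 to 4.81) lower in control PyN-like cells, and Ephb3, Ephb4 and Sema4a were lower from RG-like levels under 10 CPM. Neither Ntng1 nor Ntn4 had a UMI in the 96 control microglia-like cells, where 3 UMIs would give 3.04 CPM.

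IPC-like cells, the transit-amplifying step between radial glia and neurons, had fewer calls, and in both libraries some genes were already close to their neuronal level. In control, 9 of 47 members were higher in IPC-like than RG-like cells (background 4.86%) and 13 were lower (background 14.8%). In Smo-cKO 16 were higher (background 7.44%) and 10 lower (background 14.5%) of 47. Dcc, Efna2, Epha3, Ephb6, Sema4c, Sema5a, Sema6c and Unc5a were higher in both libraries. Sema5a was at 102 and 82.9 CPM in IPC-like cells, above both RG-like (23.4 and 18.4 CPM) and PyN-like cells (55.8 and 67.4 CPM). Dcc, at 14.1 and 16.4 CPM, was close to its PyN-like levels of 16.7 and 18.3 CPM. Nrp1 was not called in IPC-like cells (9.53 and 11.4 CPM). Ntn4, Ntng1, Plxnb1, Plxnc1, Sema3f, Sema4a, Sema4d, Sema6a and Sema6d were lower in both libraries, Ntng1 at 1.26 and 2.57 CPM. Not all of these stayed low in PyN-like cells. Sema6d stood at 38.2 and 57.7 CPM there against 12.7 and 16.1 CPM in IPC-like cells, and Sema4d at 4.09 and 6.19 against 0.838 and 1.62 CPM, and neither was called between PyN-like and RG-like cells.

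Neurons were not uniform. Among the PyN-like clusters were those led by Ulk4 and Neurod1, by Neurod2 and by Cdkn1c and Zic1. Nrp1 was at 46.4 CPM in the control cells of the cluster led by Ulk4, 187 in that led by Neurod2 and 23.4 in that led by Cdkn1c, with 56.9, 207 and 38.2 CPM in Smo-cKO. Nrp2 had another order, at 41.6, 36.9 and 87.6 CPM in the same control clusters and 65.3, 35.3 and 75.5 CPM in Smo-cKO. Of these 3 clusters, that led by Neurod2 had the highest Nrp1 and the lowest Nrp2 level in both libraries, and that led by Cdkn1c the reverse. Dcc was also highest in the Cdkn1c cluster, at 54.9 and 37.2 CPM. Because clusters were drawn from other genes of the same cells, these levels are a description.

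Interneuron-like cells had less of 5 semaphorins (Sema3a, Sema3c, Sema4d, Sema5a and Sema5b) than PyN-like cells in both libraries. In control 11 of 46 members were lower (background 7.13%) and 2 were higher (background 7.1%), and in Smo-cKO 19 of 48 were lower (background 10.9%) and 8 higher (background 7.86%). Nrp1 and Unc5d were also among the 10 genes lower in both, and Sema3c was at 81.4 and 35.2 CPM. Sema6a and Plxnc1 were higher in both libraries. Sema6a was high in IN-like cells, at 61 and 88.5 CPM, that is 41.6-fold (23.7 to 75.8) the level of control PyN-like cells. Slit1 was carried by the IN-like cluster led by Dlx6os1 and Prox1, at 23.5 and 57.7 CPM, against 3.27 and 0 CPM in the cluster led by Lhx6 and Sst.

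Between genotypes, guidance genes of RG-like cells were called in both directions. In RG-like cells 46 members were tested and 4 were higher in Smo-cKO (background 7.34%), namely Ephb1, Ntn4, Sema3b and Sema3f, while 10 were lower (background 7.39%), namely Dcc, Epha3, Epha7, Nrp2, Ntng1, Plxna4, Plxnc1, Robo2, Sema6a and Unc5d. The median log2 difference was -0.0038 over the members and -0.0078 over all genes tested. Plxnc1 (chr10:94790866-94944835, minus strand) stood at 36.4 (31.5 to 41.9) CPM in control and 10.9 (8.39 to 13.9) CPM in Smo-cKO, that is 3.35-fold (2.52 to 4.51) lower. Sema6a fell from 62.2 (55.7 to 69.3) to 31.1 (26.8 to 35.9) CPM, and Ntng1 from 54.1 to 34.1 CPM. Ntn4 rose from 59.1 (52.8 to 65.9) to 96.3 (88.6 to 105) CPM. Sema3b and Sema3f, class 3 semaphorin genes that both lie on chromosome 9, rose from 1.49 and 4.83 to 6.86 and 12 CPM, Sema3b from 8 control UMIs.

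The RG-like class joined a cluster led by Aldoc (661 control and 668 Smo-cKO cells) and a cluster led by Igfbp5 (318 and 119 cells). The second made up 32.5% of control and 15.1% of Smo-cKO RG-like cells and had more RNA of the 16 PyN markers, 1567 and 1482 CPM against 423 and 459.8 CPM. Each genotype ratio was therefore also taken within clusters. In the Aldoc cluster 6 of 42 members were higher in Smo-cKO (background 7.98%) and 8 were lower (background 6.33%). In the Igfbp5 cluster 6 of 38 were higher (background 7.36%) and 3 lower (background 6.76%). Plxnc1 was lower in both, at 43.9 against 12.4 CPM and 25.7 against 5.34 CPM, and so was Sema6a, at 78.9 against 37.5 CPM and 38.3 against 8.39 CPM. Ephb1 was 2.29-fold (1.62 to 3.29) higher in the Aldoc and 2.29-fold (1.44 to 3.67) higher in the Igfbp5 cluster. Ntn4 was 1.48-fold (1.27 to 1.74) and 1.36-fold (0.973 to 1.88), under the 1.5-fold limit in each cluster.

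**Figure D3:**
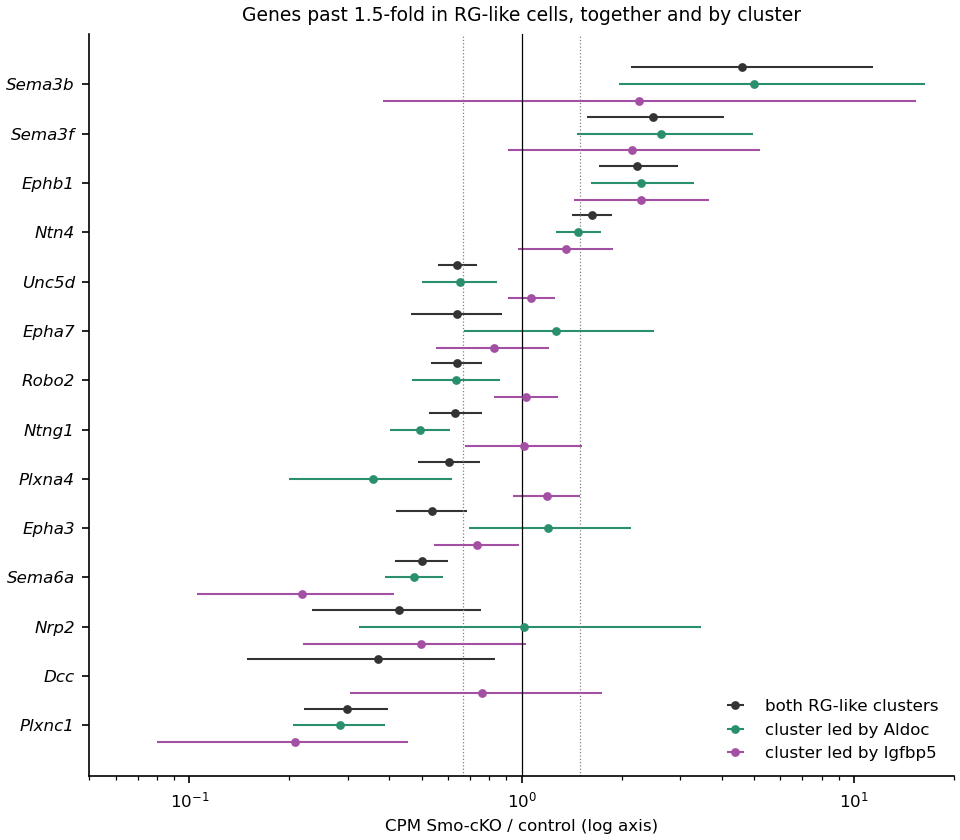
Ratio of the Smo-cKO to the control level (log axis) for the 14 members called between genotypes in RG-like cells, with all RG-like cells together and within the clusters led by Aldoc and by Igfbp5. Points are ratios, bars exact 95% intervals of counting error, and dotted lines the 1.5-fold limits, and ratios from under 30 UMIs are drawn too. Plxnc1 and Sema6a lie below the lower limit in every group, Ephb1 above the upper limit in every group, and Dcc has no point in the Aldoc cluster, where Smo-cKO cells had no UMI.

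The genes of this group that were higher in PyN-like cells gave other ratios inside the clusters. Ratios of Smo-cKO to control were 1.2 and 0.734 for Epha3, 1.27 and 0.825 for Epha7, 0.651 and 1.07 for Unc5d, 0.634 and 1.03 for Robo2 and 0.356 and 1.19 for Plxna4 in the Aldoc and Igfbp5 clusters. None of these 5 was called lower in both clusters, Dcc and Nrp2 had too few UMIs in the Aldoc cluster, and Ntng1, with 0.496 and 1.02, was called lower in the Aldoc cluster and not called in the other, a difference between clusters that was not tested. Microglia-like cells, which are not of the neuronal lineage, also had more of some of these genes in the control library. The cluster make-up of the microglia-like class differed between libraries as well. Unc5d was at 29.4 CPM in control and 9.26 CPM in Smo-cKO microglia-like cells, Robo2 at 27.3 and 3.27 CPM and Epha3 at 12.1 and 4.9 CPM, whereas Plxna4 was at 9.11 and 8.72 CPM. The microglia-like levels of Plxnc1 and Sema6a were under 10 CPM in both libraries, at 4.05 and 9.26 CPM and 1.01 and 0.545 CPM. The summed level of 5 red blood cell markers also differed between libraries, at 2668 and 242 CPM in RG-like and 21.5 and 941 CPM in PyN-like control and Smo-cKO cells. These levels sat in single clusters. They were 4530 and 299.8 CPM in the Aldoc cluster against 9.02 and 34.3 CPM in the Igfbp5 cluster. In the PyN-like cluster led by Ulk4 they were 13.5 and 2206 CPM, against at most 40.2 CPM in those led by Neurod2 and Cdkn1c. The IPC-like clusters differed in opposite directions, at 12.8 and 2150 CPM in that led by Eomes and 1154 and 31 CPM in that led by Neurog2. The part of RNA from other cells and of cluster make-up in the genotype ratios was not tested.

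Cycling RG-like cells repeated several of these differences. Of 45 members tested, 7 were higher in Smo-cKO (background 5.59%) and 13 were lower (background 8.76%). Plxnc1 was at 27.5 and 9.87 CPM, Sema6a at 42.8 and 24.6 CPM, Ntn4 at 48.8 and 76.9 CPM and Ephb1 at 9.79 and 22.9 CPM in control and Smo-cKO. All 4 were called in the direction they had in RG-like cells. Slit2 was called higher here, at 6.65 and 14.5 CPM, while in RG-like cells it was at 11.7 and 11.4 CPM. Sema3c and Sema5a were called lower here, and their microglia-like levels were 18.2 and 3.27 CPM for Sema3c and 5.06 and 3.81 CPM for Sema5a.

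In IPC-like and PyN-like cells, unlike the RG-like classes, more members were called higher than lower in Smo-cKO. The same order held over all genes tested in IPC-like and in PyN-like cells. In IPC-like cells 8 of 45 members were higher (background 7.46%) and 3 were lower (background 2.87%). In PyN-like cells 8 of 50 were higher (background 5.19%) and 0 lower (background 2.51%). The median log2 difference in PyN-like cells was 0.15 over the members and 0.05 over all genes tested.

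Ephb1, a receptor for B-type ephrins (chr9:101922128-102354693, minus strand), was higher in Smo-cKO across the excitatory lineage. It went from 4.09 (2.91 to 5.59) to 17.6 (14.7 to 20.9) CPM in IPC-like cells, 4.3-fold (2.99 to 6.32), and from 13.3 (11.4 to 15.5) to 33.6 (30.5 to 36.9) CPM in PyN-like cells, 2.52-fold (2.1 to 3.02). In IPC-like cells a UMI of Ephb1 was found in 31 of 2128 cells (1.46%, 0.992 to 2.06) of control and 95 of 1310 cells (7.25%, 5.91 to 8.79) of Smo-cKO, and in 1 of 96 cells (1.04%, 0.0264 to 5.67) and 4 of 176 cells (2.27%, 0.623 to 5.72) of the deeper microglia-like classes. With each cell thinned to 2500 UMIs the IPC-like shares were 0.901% and 3.62%, over 2103 and 1300 cells. Ephb1 was called higher in both IPC-like clusters, in 3 of the 4 PyN-like clusters and, at 2.38-fold (1.69 to 3.37), in the unnamed cluster led by 1500015O10Rik and Gfap. In the cluster led by Ulk4 it was 4.58-fold (3.07 to 7.03) and in that led by Neurod2 2.43-fold (1.88 to 3.16). IN-like cells had 4.36 and 4.26 CPM from 3 and 4 UMIs. In control cells Ephb1 fell between RG-like and IPC-like cells, from 14.3 to 4.09 CPM, and in Smo-cKO cells it was not called, at 31.9 and 17.6 CPM.

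Robo1 (chr16:72308306-73046095, plus strand) was called higher in IPC-like and PyN-like but not in RG-like cells. It was at 16.9 and 13.9 CPM in control and Smo-cKO RG-like cells and was not called, with a ratio of 0.821 (0.602 to 1.12). In IPC-like cells it went from 13.1 (10.9 to 15.6) to 40.6 (36.1 to 45.4) CPM, 3.1-fold (2.51 to 3.85), and in PyN-like cells from 72.8 to 113 CPM, 1.55-fold (1.43 to 1.69). No Slit or Robo gene was called in the PyN-like cluster led by Neurod2. Over 6 other ways of drawing the classes the PyN-like ratio of Robo1 was 1.41 to 1.59, so that some drawings lost the call. Within IPC-like cells the ratio was 5.35-fold (3.4 to 8.76) in the cluster led by Neurog2, where control cells had 5.44 CPM, and 2.88-fold (2.25 to 3.71) in that led by Eomes. Robo2 was not called in either class, at 93.4 and 91.9 CPM in IPC-like and 230.4 and 252 CPM in PyN-like cells, and the difference between the receptors was not tested. IN-like cells, which have Robo1 as well, had 69.7 and 80.0 CPM.

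Ntn4 was the other gene called higher in every class along this lineage, at 13.9 and 24.7 CPM in IPC-like and 3.86 and 7.42 CPM in PyN-like cells. Its RG-like call was not met within either RG-like cluster, and over other drawings that ratio was 1.49 to 1.66. Sema7a, Ephb3 and Slit2 were also higher in IPC-like cells, Sema7a from 5.03 to 9.06 CPM. Slit1 was lower there, at 4.3 and 1.89 CPM, and was called lower in the cluster led by Neurog2 (6.85 and 1.44 CPM). In PyN-like cells Sema3f, Sema4d, Sema5b and Sema6d were higher, Sema5b from 14.7 to 24.5 CPM and Sema6d from 38.2 to 57.7 CPM. Of these 4, Sema5b kept its call over 6 other ways of drawing the classes, whereas the ratio was 1.44 to 2.03 for Sema3f, 1.16 to 1.57 for Sema4d and 1.44 to 1.53 for Sema6d, so that some drawings lost the call. Ntng1, Ephb4, Plxnc1 and Sema6a were called in IPC-like cells, and Ephb4 in PyN-like cells, with intervals that reached 1. Of the 40 members tested in RG-like, cycling RG-like, IPC-like and PyN-like cells, 6 were above 1 in all 4 classes (Epha4, Ephb1, Ephb4, Ntn4, Plxna1 and Sema6d) and 4 were below 1 in all 4 (Efnb1, Epha3, Plxnc1 and Sema6a). Of these 10, Ephb1 and Ntn4 passed the 1.5-fold limit in all 4 classes. No share of all genes on 1 side in all 4 classes was taken, so these counts are a description.

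The cycling bMIPC-like cells (basal multipotent intermediate progenitor-like, 1476 control and 456 Smo-cKO cells, named from markers such as Egfr and Olig2 and led by cell cycle genes) had calls in both directions. Of 44 members tested, 5 were higher in Smo-cKO (background 7.58%), namely Ephb1, Ntn4, Ntng1, Robo1 and Sema7a, and 8 were lower (background 6.21%), namely Dcc, Epha3, Ephb3, Ephb6, Plxnc1, Robo2, Sema3c and Slit1. Ntng1 went from 22.2 to 42.6 CPM, 1.92-fold (1.55 to 2.38), the opposite of its call in RG-like cells, and Ephb3, 2.89-fold (1.03 to 11.3) lower from 4 Smo-cKO UMIs, the opposite of its call in IPC-like cells. The intervals of Sema7a, Ephb6, Plxnc1 and Slit1 reached 1. The class joined clusters led by Hist1h2ae (636 control and 133 Smo-cKO cells), Cenpa (408 and 216) and E2f1 (432 and 107). Its make-up thus differed between libraries, and ratios within these clusters are not given. In IN-like cells the calls were mostly toward lower levels in Smo-cKO. Of 28 members tested there, 7 were lower (background 7.18%), namely Epha3, Epha7, Plxnb2, Robo2, Sema3c, Sema6d and Unc5d, and 1, Slit1, was higher (background 9.76%). Robo2 was at 149.7 (122 to 181) CPM in control and 73.6 (57.2 to 93.1) CPM in Smo-cKO, Unc5d at 112 and 54.4 CPM and Sema3c at 81.4 and 35.2 CPM, and the intervals of Epha7 and Sema6d reached 1. Of these 7 genes, 6 were also at a higher level in control than in Smo-cKO microglia-like cells, Sema3c at 18.2 and 3.27 CPM and Sema6d at 11.1 and 1.63 CPM, whereas Plxnb2 was at 94.1 and 119 CPM. Slit1 had no UMI in microglia-like cells of either library. The difference in genotype ratio between IN-like and PyN-like cells was not tested.

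**Figure D4:**
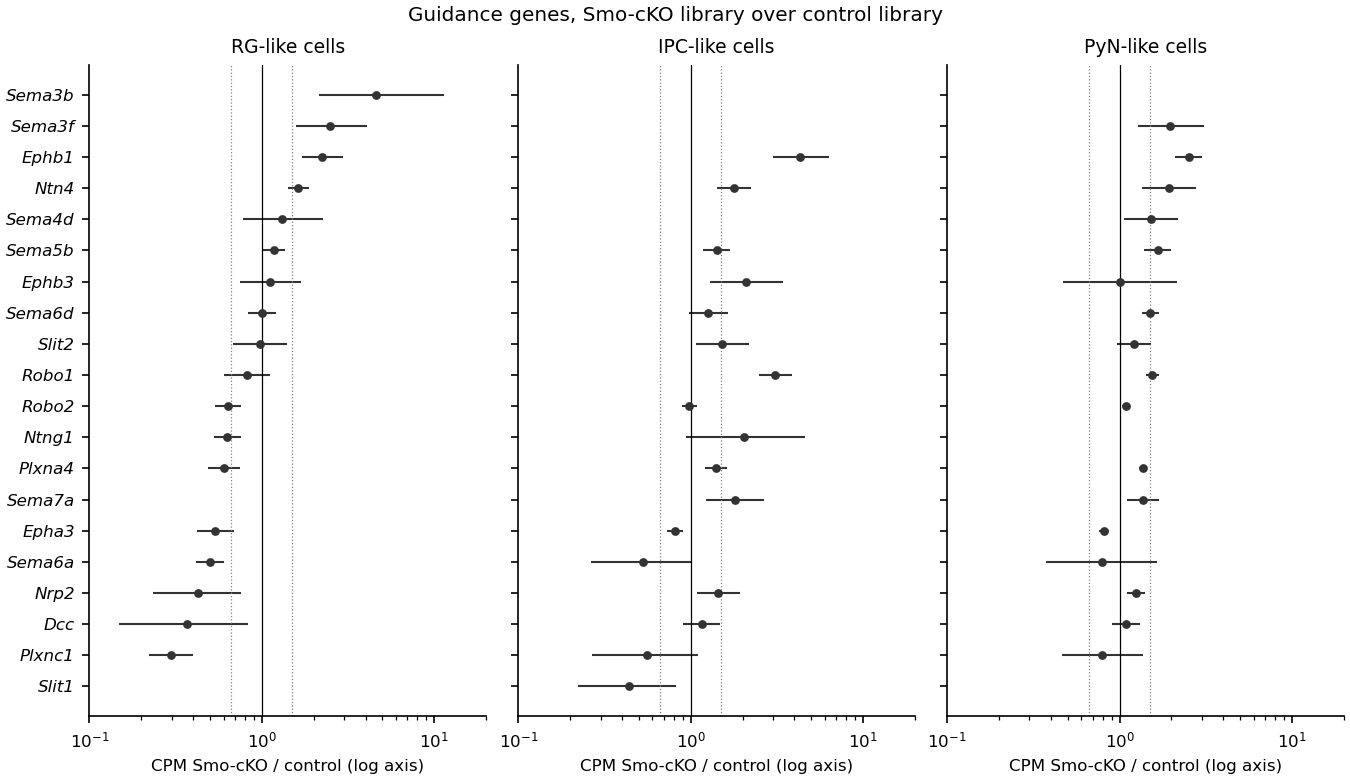
Ratio of the Smo-cKO to the control level (log axis) in RG-like, IPC-like and PyN-like cells, 1 panel per class, for the members with the largest called genotype ratios whose interval left out 1 in at least 1 of these classes. Points are ratios, bars exact 95% intervals of counting error and dotted lines the 1.5-fold limits, and a gene with under 30 UMIs in a class has no point there. Ephb1 and Ntn4 lie above the upper limit in all 3 panels, Robo1 in the IPC-like and PyN-like panels, and Plxnc1 and Sema6a lie left of 1 in all 3.

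In the ferret cortex, too, more guidance genes were higher in neurons than in radial glia. RG-like (434 and 536 cells in sets 1 and 2), IPC-like (986 and 1157), PyN-like (6997 and 8375) and IN-like cells (188 and 1297) were named. With the sets summed, 59 of 70 members were tested between PyN-like and RG-like cells, 27 were higher in PyN-like cells (background 13.8%) and 7 were lower (background 17.9%). Set 1 gave 26 higher (background 13%) and 9 lower (background 15.4%) of 55, and set 2 30 higher (background 14%) and 8 lower (background 18%) of 59. The sets shared 23 genes called higher and 5 called lower. The sets came from 1 embryo and a shared clustering, and no share of all genes called alike in both was taken. SLIT1 and SEMA3D were called in opposite directions in the sets. The make-up of the PyN-like class differed between sets. Clusters led by CDH8 (74 and 509 cells) and ADRA1A (44 and 400) had more cells in set 2. Clusters led by PRSS12 (1277 and 614) and PENK (958 and 478) had more in set 1. The part of this make-up in the opposite calls was not tested. Markers of other classes were found in the named ferret classes. The 15 RG markers summed to 7417 and 4886 CPM in PyN-like and 30229 and 29625 CPM in RG-like cells, and microglia-like cells, which are not of the neuronal lineage, had 330.2 and 509 CPM of ROBO2.

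Dcc, Unc5 and netrin-G genes were among the ferret genes higher in neurons. DCC was at 80.4 and 91.1 CPM in RG-like, 531 and 1179 CPM in IPC-like and 274 and 477 CPM in PyN-like cells, so that of these classes IPC-like cells had the highest level in both sets. UNC5C was 4.3-fold (3.47 to 5.39), UNC5D 3.62-fold (3.33 to 3.94) and UNC5A 4.14-fold (1.6 to 15.3) higher in PyN-like than RG-like cells, UNC5A from 4 RG-like UMIs. The netrin-G genes NTNG1 and NTNG2 were both higher in neurons, at 29.9 and 38.7 CPM against 10.5 and 16.4 CPM and at 54.5 and 46.8 CPM against 10.5 and 8.21 CPM. With the sets summed, PLXNA4 was 5.48-fold (4.65 to 6.5), EPHA6 6.46-fold (5.2 to 8.12), SEMA3F 4.34-fold (2.41 to 8.74), SEMA4F 4.14-fold (2.54 to 7.27) and EFNA3 4.0-fold (2.65 to 6.33) higher. The sets differed for EPHA6, at 4.26-fold in set 1 and 8.12-fold in set 2.

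The 5 ferret genes lower in PyN-like cells in both sets were EFNB1, EPHA4, EPHB4, SEMA5B and SEMA6A. EFNB1 fell from 111 and 187 CPM in RG-like to 10.4 and 18.4 CPM in PyN-like cells, 10.2-fold (9.14 to 11.3) lower with the sets summed. Its receptor EPHA4, which binds ephrins of both types, fell from 111 and 152 to 44.4 and 66 CPM. SEMA5B fell from 42 and 64.4 to 4.33 and 7.6 CPM.

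ROBO2 was highest in IPC-like cells of these 3 classes, at 1645 and 1939 CPM in RG-like, 4289.9 and 5207 CPM in IPC-like and 1157 and 1196 CPM in PyN-like cells. The ferret PyN-like cells fell into 10 clusters, and ROBO2 spanned them widely. It was at 3991 and 4024 CPM in the cluster led by GRIN2A and NRN1, where UNC5D was at 1436 and 2147 CPM, and at 389.9 and 304 CPM in the cluster led by PRSS12, BCL6 and CUX2, where UNC5D was at 359 and 579.6 CPM. EPHA3 was also high in the GRIN2A cluster, at 1986 and 2600.3 CPM, and low in the cluster led by RSPO3 and FEZF2, at 156 and 81.1 CPM. The clusters led by NTS and TLE4 and by RSPO3 and FEZF2, where TLE4 and FEZF2 are genes of deep layer neurons, had much EFNA5, at 190.2 and 282 CPM and 156 and 156 CPM, as did the cluster led by PENK and RORB, at 235 and 301 CPM, whereas the cluster led by CRABP1 and CUX2 had 24.7 and 14.5 CPM.

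Ferret interneuron-like cells differed from PyN-like cells in both directions. Of 60 members, 9 were higher than in PyN-like cells (background 10.5%) and 18 were lower (background 9.25%). EPHA5 was at 2245 and 2954 CPM against 739 and 919.8 CPM in PyN-like cells, UNC5C at 219.9 and 300.2 against 53.6 and 122 CPM, and SEMA5A at 46.4 and 89.7 against 2.89 and 5.76 CPM. The 2 IN-like clusters differed in SEMA5A. It was at 93.8 and 148.5 CPM in that led by ADARB2. In that led by NXPH1 and SST it was at 4.6 CPM in set 1, from 1 UMI, and 37.9 CPM in set 2. SEMA6A and SLIT1 were higher by 2.43-fold (2.14 to 2.76) and 4.7-fold (4.09 to 5.39). Of the 2 IN-like clusters, that led by ADARB2 had the more SLIT1, at 67.8 and 138 CPM in sets 1 and 2, against 18.4 and 18.2 CPM in the cluster led by NXPH1 and SST and 4.83 and 20.7 CPM in PyN-like cells. In the mouse Sema6a was higher in both libraries and Slit1 in Smo-cKO, control having under 30 UMIs. In the mouse Sema5a had the opposite order, being lower in IN-like cells of both libraries. SEMA3C, EPHB1 and NRP1 were lower, SEMA3C at 29.3 and 14.8 CPM. Set 2 held most of the IN-like cells, 9.94% of its cells against 1.85% of set 1.

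Set side by side, 48 members were tested between PyN-like and RG-like cells in control mouse and in ferret, and 15 were higher in neurons of both species: Dcc, Efna2, Efna3, Epha3, Epha7, Ephb6, Nrp1, Plxna2, Plxna4, Sema3c, Sema4f, Sema6c, Sema7a, Unc5a and Unc5d. Of all 8888 genes that share a symbol and were tested in both, 5.47% were higher in both, 8.56% lower in both and 1.33% opposite. Ephb4, Sema5b and Sema6a were lower in both. Ntng1 and Plxnc1 were called in opposite directions. Ntng1 was 77.9-fold (40.5 to 172) lower in control mouse PyN-like cells and 2.51-fold (1.91 to 3.37) higher in ferret PyN-like cells, and Plxnc1 13.9-fold (9.61 to 20.6) lower and 3.02-fold (1.95 to 4.97) higher. Each direction was seen in both mouse libraries and in both ferret sets. Over the 48 genes the log2 differences had a Pearson correlation of 0.42 and a Spearman correlation of 0.48, a description across genes that are not independent. Species, age, sorting and read annotation all differ between the tables and cannot be told apart.

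**Figure D5:**
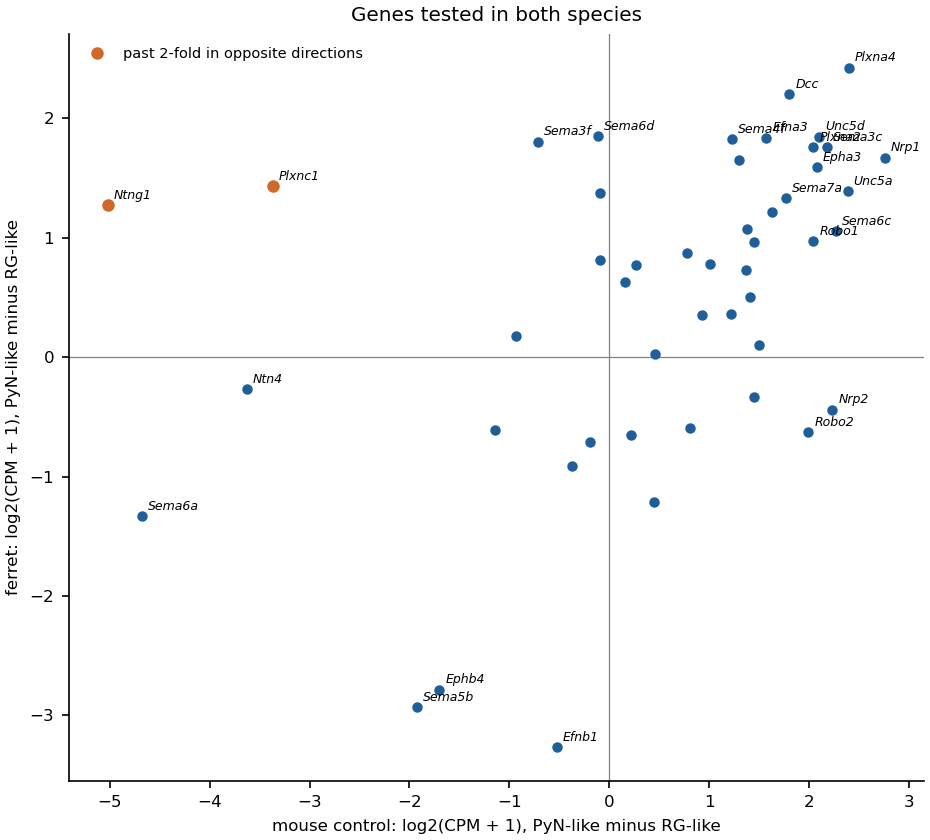
Log2 difference (CPM + 1) between PyN-like and RG-like cells in control mouse (horizontal) and in ferret with both sets summed (vertical), 1 point per gene tested in both species. Genes at the upper right, such as Nrp1, Plxna4 and Unc5d, are higher in neurons of both, and the marked Ntng1 and Plxnc1 lie at the upper left.

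Other genes of guidance signaling were followed as well. Of 21 coreceptors and adhesion partners, all tested, 10 were higher (background 11.3%) and 2 lower (background 17.6%) in control mouse PyN-like than RG-like cells. The higher ones included L1cam, Chl1 and Cntn2 of the L1 and contactin groups and Flrt1, Flrt2 and Flrt3, which bind Unc5 receptors, and the lower ones were Nrcam and Rgma. Of 45 intracellular effectors, 41 were tested against the same backgrounds, 14 were higher, among them Crmp1, Dpysl3 and Dpysl5, which relay semaphorin signals, and 5 were lower. In Smo-cKO 10 and 2 of 20 coreceptors and 15 and 5 of 41 effectors were higher and lower (backgrounds 14.3% and 18.3%). In the ferret 7 and 4 of 21 coreceptors and 9 and 0 of 44 effectors were higher and lower (backgrounds 13.8% and 17.9%). Of the genes named above as higher, L1CAM, CHL1, CNTN2, FLRT2 and CRMP1 were also higher in the ferret. FLRT1, DPYSL3 and DPYSL5 were not called there, and FLRT3 was lower, at a ratio of 0.373. In Smo-cKO mouse cells Flrt2 was not called, at a ratio of 0.818. Between genotypes, in RG-like cells 2 of 18 coreceptors were higher and 5 lower in Smo-cKO, and 3 of 38 effectors were higher and 5 lower (backgrounds 7.34% and 7.39%). In IPC-like cells 2 of 17 coreceptors were higher and 1 lower, with 1 and 1 of 39 effectors (backgrounds 7.46% and 2.87%). In PyN-like cells 1 coreceptor was higher and 1 lower of 21, and 2 effectors were higher and 2 lower of 41 (backgrounds 5.19% and 2.51%). Lrrc4c, which encodes the binding partner of netrin-G1, was called higher in Smo-cKO RG-like cells, at 12.4 CPM in control and 25.9 CPM in Smo-cKO RG-like cells. Chn2, a Rac regulator downstream of Eph and semaphorin receptors, was called higher in Smo-cKO RG-like, IPC-like and PyN-like cells, from 17.6 to 37.2 CPM in the last, and Dpysl4 was called lower in all 3, from 3.86 to 1.55 CPM.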

How the data were processed

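Single-cell RNA of the E18 mouse cortex (1 control and 1 Smo-cKO library) and the E39 ferret cortex (1 embryo, 2 labelled samples) was analysed from the tables of counts that the authors deposited, which hold whole UMI counts per gene and cell with no normalization. The submitters' processing notes name mm10, Cell Ranger, StringTie and Seurat 3. The ferret build is not given in the sources used here. All columns of cells were used, so that 0 columns of per-sample values were left out. Gene positions are from GENCODE for the mm10 assembly.

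Cells with 750 to 5000 genes and under 10% mitochondrial UMIs were kept. They were clustered in Seurat 5.3.0 under R 4.3.3, with the libraries of a species integrated. Of 2000 variable genes, the guidance genes among them (14 in mouse and 23 in ferret) were left out, and 30 dimensions and a resolution of 0.8 were used. Clusters were named from marker lists where at least 3 markers were over 1 on the log2 scale above the mean of the other clusters and in 10% of cells, a threshold set after the leading genes were seen. No doublet caller was run and no cells were removed as doublets. UMIs were summed per class and library with Python 3.11.15, numpy 2.4.6, pandas 2.3.3 and scipy 1.17.1. Levels have exact Poisson, shares exact Clopper-Pearson and ratios exact conditional binomial intervals of 95%. A side with 0 UMIs was set to 3 counts, over the class, before a call. Shares were thinned to 2500 UMIs per mouse cell, leaving out shallower cells. The scripts were tested on simulated data.

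With 1 library per genotype there was no test, and calls followed a rule of size. The percent of all genes passing the same rule is given as background. Named members were those of highest level in each family, those with the largest ratios called the same way in both libraries or sets, and those with the largest genotype ratios whose interval left out 1. Others that are named were chosen after their values were seen. The members, the pathway lists and the marker lists were chosen with earlier results of these data known. The alternatives were other cell classes, filters, minimum UMIs, fold limits and scalings. Results on 1 PyN-like cluster are not reported here.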

Additional observations from a re-analysis of the deposited data

Results flagged for a closer look

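Ntng1 and Plxnc1 were called in opposite directions between PyN-like and RG-like cells in the 2 species. The ratio of PyN-like to RG-like levels of Ntng1 was 0.0128 in control mouse and 2.51 in ferret, and that of Plxnc1 was 0.0720 and 3.02. Both libraries of a species had the same direction. The difference between the species was not tested, since there is 1 library per genotype in mouse and 1 embryo in ferret.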

How the results depend on the processing

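The rules of size and the way the classes were drawn both changed how many members were called. Requiring 100 UMIs gave 5 members lower in control PyN-like cells, 2 higher in Smo-cKO RG-like cells, and 5 higher and 0 lower in Smo-cKO IPC-like cells. Requiring 10 UMIs gave 8 higher in RG-like and 1 lower in PyN-like cells. A fold limit of 2 between genotypes left 4 lower in RG-like cells, 4 higher and 1 lower in IPC-like cells and 1 higher in PyN-like cells, and a limit of 1.5 gave 14 lower in ferret PyN-like cells. Classes called cell by cell from markers gave 4 lower in RG-like, 1 lower in IPC-like, 3 higher and 1 lower in PyN-like and 13 lower in ferret PyN-like cells. Size factors in place of totals gave 5 higher in PyN-like cells. The fewer calls at a higher minimum or limit follow from its construction, and the cause of the other shifts was not tested. Of the counts of members under all alternatives, 87 stayed within 1.5 times of the main count and 17 did not. Of the shares of control RG-like and PyN-like cells with a UMI of a named member, 15 stayed within their interval and 67 left it when cells were thinned, which removes UMIs by construction. Of their CPM values 72 stayed within their interval and 10 left it when taken as a mean over cells. Taking RG-like cells from the larger cluster only was chosen after seeing the data.

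Over 6 other ways of drawing the classes the genotype ratio of Ephb1 was 2.2 to 2.48 in RG-like, 2.66 to 6.07 in IPC-like and 2.22 to 2.59 in PyN-like cells, and it was 0.249 to 0.378 for Plxnc1 and 0.454 to 0.564 for Sema6a in RG-like cells and 2.2 to 3.32 for Robo1 in IPC-like cells. Of the 26 calls of named members followed this way, 13 crossed the 1.5-fold limit under at least 1 drawing. In RG-like cells these were Ntn4 (1.49 to 1.66), Dcc (0.338 to 0.899), Epha3 (0.543 to 0.774), Nrp2 (0.41 to 0.71), Ntng1 (0.51 to 0.741), Plxna4 (0.583 to 0.677) and Robo2 (0.618 to 0.757). In IPC-like cells they were Slit2 (1.26 to 1.53) and Sema7a (1.41 to 1.93), and in PyN-like cells Robo1 (1.41 to 1.59), Sema3f (1.44 to 2.03), Sema4d (1.16 to 1.57) and Sema6d (1.44 to 1.53). None of the 26 ratios changed side of 1.

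No paired analysis was possible because there was 1 library per genotype, and the replicate numbers of the ferret samples cannot be tied to the barcode sets. A cluster resolution of 0.4 gave no ferret value, since a class stayed unnamed. Intervals cover counting error only. Members with few UMIs in a class, among them the Slit genes and class 3 semaphorins other than Sema3a, Sema3c and Sema3f, are limited by depth.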
